A study of Mus musculus with 8 samples.

Results

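Luminal keratin, epithelial junction and luminal progenitor genes were followed in whole mammary glands of mice that had received small extracellular vesicles (sEVs) from breast cancer cells. The set was chosen by name and by known role and held 10 rows of the deposited count table: the keratins Krt7, Krt8, Krt18 and Krt19, the adhesion and junction genes Epcam, Cdh1, Cldn3 and Cldn4, and the progenitor genes Kit and Aldh1a3. All 10 were among the 51789 genes of the table, and all 10 were among the 17858 genes that passed the filter on low counts and were tested. None passed edgeR's test between treatments at an unadjusted P under 0.05, and DESeq2 called Kit alone. The smallest edgeR P values belonged to the keratins Krt7 and Krt8, with higher mean levels in glands given hypoxic vesicles than in controls, and to Kit, with a lower mean level in glands given hypoxic vesicles than in those given normoxic vesicles.

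The RNA came from abdominal mammary glands of female C57BL/6 mice that were given a single injection of sEVs and were analyzed 6 weeks later. There were 3 treatments: vesicles that hypoxic AT3 cells had shed (sEV-HYP, n = 2), vesicles of the same cells under normoxia (sEV-NORM, n = 3), and material isolated in the same way from medium that had not been conditioned by cells (sEV-CTRL, n = 3). AT3 is a line of metastatic adenocarcinoma cells from the mouse mammary gland. The labels call the vesicles exosomes and the treatments control, normoxia and hypoxia, and all glands, controls included, were injected. The study lists its C57BL/6 mice as the albino strain B6(Cg)-Tyrc-2J/J, which carries a mutant tyrosinase allele, and the age of the mice is not given in the sources used here. Per the study the groups were of 2 to 3 animals, and AT3 is a single cell line, so that differences between tumor lines were not part of these samples. No label ties libraries to separate vesicle preparations, so that P values measure the spread between these glands only.

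Keratins 8 and 18 pair as type II and type I intermediate filament proteins in the luminal cells that line mammary ducts and alveoli, with keratins 7 and 19 as further luminal partners. E-cadherin (Cdh1) holds neighboring epithelial cells together at adherens junctions, EpCAM is an epithelial cell adhesion molecule, and claudins 3 and 4 form strands of the tight junctions that seal the duct. Kit, a receptor tyrosine kinase for stem cell factor, and Aldh1a3, an aldehyde dehydrogenase that makes retinoic acid, mark luminal progenitor cells, but Kit also marks mast cells and melanocytes. In a whole gland, these genes report on epithelium embedded in fat, so that fewer epithelial cells and less RNA per epithelial cell cannot be told apart.

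In the mouse genome (GRCm38, GENCODE M21), Krt7 (chr15:101411043-101430313, plus strand), Krt8 (chr15:101996698-102004482, minus strand) and Krt18 (chr15:102028180-102032027, plus strand) lie in the same keratin region of chromosome 15, with a gap of 566.4 kb between Krt7 and Krt8 and of only 23.7 kb between Krt8 and Krt18. Krt19 lies apart from them (chr11:100140810-100148665, minus strand). Cldn3 (chr5:134986214-134987472, plus strand) and Cldn4 (chr5:134945119-134946934, minus strand) are neighbors with 39.3 kb between them, and Kit (chr5:75574916-75656722, plus strand) is on the same chromosome. Epcam (chr17:87635979-87651129, plus strand), Cdh1 (chr8:106603351-106670246, plus strand) and Aldh1a3 (chr7:66390890-66427517, minus strand) are single loci. All 10 are protein coding. Exons of 3 genes overlap an annotated gene on the opposite strand. The longest shared stretch was 77 bases for Krt7 (Gm671), 101 bases for Krt8 (Gm36026) and 40 bases for Cldn3 (Wbscr25). Of these neighbors only Wbscr25 has a row in the count table. A few reads in these stretches could come from either gene if strand was not used in counting. The pseudogene Krt8-ps held 89 counts over all 8 libraries, against 950 to 2344 counts per library for Krt8.

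RefSeq promoter sequences of 300 bases (GRCm38.p6), most of each window lying before the start site, matched 7 of the 10 genes, all but Krt19, Cdh1 and Aldh1a3. Krt7 and Krt8 are shown as the keratins with the highest correlation below, Epcam and Cldn3 as the adhesion and tight junction genes that followed other epithelial lists, and Kit as the gene with the largest difference between the vesicle treatments. Capitals mark 3 motifs that were searched on both strands. The first is CAGGTG, an E-box, which also appears as its reverse complement. The second is the GC box GGGCGG, read in the same way on either strand. The third is TATAAA, and the capitals in Krt8 cover 2 overlapping matches of it on opposite strands. The windows are chr15:101412153-101412452 (plus) for Krt7, chr15:102004293-102004592 (minus) for Krt8, chr17:87635729-87636028 (plus) for Epcam, chr5:134985964-134986263 (plus) for Cldn3 and chr5:75574737-75575036 (plus) for Kit, each printed 5′ to 3′ on the gene's strand.
Krt7: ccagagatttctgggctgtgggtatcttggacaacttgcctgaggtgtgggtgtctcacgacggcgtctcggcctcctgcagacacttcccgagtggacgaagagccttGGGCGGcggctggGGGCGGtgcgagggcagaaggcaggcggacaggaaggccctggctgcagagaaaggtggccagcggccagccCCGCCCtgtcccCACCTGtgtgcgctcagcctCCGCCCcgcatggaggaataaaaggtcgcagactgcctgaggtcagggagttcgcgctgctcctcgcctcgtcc
Krt8: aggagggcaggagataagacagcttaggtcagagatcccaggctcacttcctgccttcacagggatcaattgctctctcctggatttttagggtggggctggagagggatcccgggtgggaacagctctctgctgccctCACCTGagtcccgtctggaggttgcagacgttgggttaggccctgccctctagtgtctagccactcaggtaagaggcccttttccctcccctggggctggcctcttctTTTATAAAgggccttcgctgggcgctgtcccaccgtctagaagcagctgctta
Epcam: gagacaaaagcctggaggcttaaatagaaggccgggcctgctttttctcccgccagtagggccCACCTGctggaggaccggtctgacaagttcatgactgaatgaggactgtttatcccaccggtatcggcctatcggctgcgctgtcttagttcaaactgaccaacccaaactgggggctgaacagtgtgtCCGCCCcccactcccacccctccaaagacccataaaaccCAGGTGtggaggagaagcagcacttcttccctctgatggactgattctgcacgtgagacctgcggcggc
Cldn3: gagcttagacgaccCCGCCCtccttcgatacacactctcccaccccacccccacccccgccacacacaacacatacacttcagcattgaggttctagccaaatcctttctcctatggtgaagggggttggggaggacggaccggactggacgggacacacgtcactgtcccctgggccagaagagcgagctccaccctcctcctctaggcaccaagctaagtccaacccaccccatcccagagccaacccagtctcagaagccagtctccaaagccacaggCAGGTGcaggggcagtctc
Kit: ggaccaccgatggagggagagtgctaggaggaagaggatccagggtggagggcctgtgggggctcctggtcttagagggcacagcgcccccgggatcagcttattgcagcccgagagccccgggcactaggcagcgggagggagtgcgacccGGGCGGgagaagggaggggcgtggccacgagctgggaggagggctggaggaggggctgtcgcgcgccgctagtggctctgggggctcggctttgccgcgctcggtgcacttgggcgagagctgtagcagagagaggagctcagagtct

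The E-box, a motif that helix-loop-helix and zinc finger factors bind in many epithelial genes, was found in 6 of the 7 promoters (Krt7, Krt8, Krt18, Epcam, Cldn3 and Cldn4), against 20.2% of 32851 mouse promoters of the same length. It began 44 bases before the start site in Krt7, 111 before in Krt8 and 214 before in Krt18, and Epcam held 2, beginning 187 and 19 bases before. In Cldn3 it lay 31 bases after the start site. The Kit window held no CAGGTG. The GC box was present in 5 of the 7, against 35.7% of all promoters, with 4 copies in Krt7, and TATAAA only in Krt8, against 13.6%. These matches describe letters in a window and were not measured as binding.

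Library depth ranged from 18194996 to 24622569 estimated counts per gland, and the 10 genes together took 0.0433% to 0.0777% of them. Levels are given as CPM, the count of a gene scaled to its library's total after TMM normalization. The tissue carried the markers of its label: the summed CPM of 10 white adipocyte genes ranged from 9370 to 17100, and no gene of the junction, progenitor, hormone-sensing or basal epithelial lists was at 0 in any library, while 1 or 2 of 9 alveolar and milk genes were. Other tissue varied between glands. The 10 skeletal muscle genes summed to 10.8 CPM in sEV-NORM replicate 2 and to 12800 in sEV-HYP replicate 2, the 8 B cell and lymph node genes ranged from 1130 (sEV-HYP replicate 2) to 3530 CPM (sEV-NORM replicate 2), and the 12 skin genes, of which 1 to 7 were at 0 in each library, stood at 93 CPM in sEV-NORM replicate 3 against 9.36 to 13.2 elsewhere. Correlations of the 10 genes with these lists are among the 140 relations below, and none of them passed the adjustment. Krt19 with the B cell and lymph node list had r = -0.829 (exact permutation P = 0.012, Benjamini-Hochberg P = 0.199). The part of these tissues in the differences between treatments was not tested.

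Per kilobase of the principal transcript, Krt19 and Krt18 were the most abundant of the 10 genes and Krt7 the least. The mean level over the 8 libraries was 103 ± 19.2 CPM per kb (SD) for Krt19 and 95.5 ± 18 for Krt18, and Krt19 was above Krt18 in 6 of 8 libraries. With all annotated exons as length, Krt19 was at 87.7 and Krt18 at 95.5, so that their order turned. Epcam (46.9 ± 9.73 CPM per kb) and Krt8 (42.2 ± 11) followed, and Krt18 exceeded Epcam in 8 of 8 libraries. Epcam exceeded Krt8 in only 5 of 8, so that these neighbors were not separated beyond their spread.

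Kit stood at 16.8 ± 5.24 CPM per kb and Cdh1 at 10.4 ± 2.26, with Kit above Cdh1 in 7 of 8 libraries. When all annotated exons were counted as length, Kit was at 9.81 and Cdh1 at 10.1 CPM per kb, so that their order depended on the length used, as did that of Aldh1a3 (4.45) and Cldn4 (4.59). The low end held Aldh1a3 (5.96 ± 1.92), Cldn4 (4.59 ± 1.13), Cldn3 (3.40 ± 1.30) and Krt7 (3.21 ± 0.895), each above the next in 5, 7 and 6 of 8 libraries. Krt7 was therefore the scarcest of the 4 keratins and Cldn3, with 46 to 182 counts per library, the least sampled gene.

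**Figure D1:**
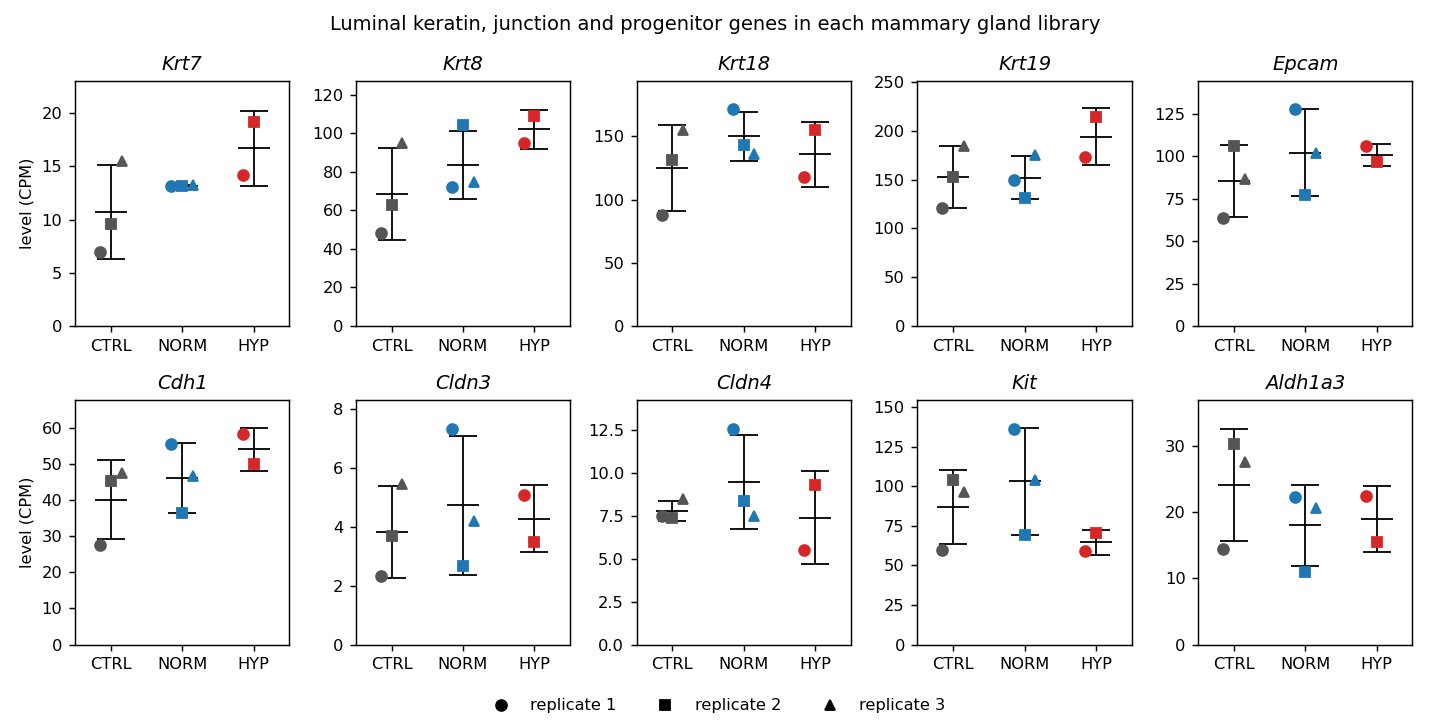
Level of each of the 10 genes in each library (vertical axis, CPM on a linear scale from 0; horizontal axis, treatment: CTRL, sEV-CTRL; NORM, sEV-NORM; HYP, sEV-HYP). Symbols are libraries by replicate number and black bars are the mean ± SD of a treatment; the sEV-HYP points of Krt8 and Cdh1 lie above the 3 controls, and those of Kit (59.1 and 70.3 CPM) lie low.

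One control gland set the lower end of most genes. sEV-CTRL replicate 1 was the lowest library for 7 of the 10 genes, with a summed level of 439 CPM against 653 and 721 in the other sEV-CTRL libraries, 595 to 770 in sEV-NORM and 657 and 743 in sEV-HYP. At the upper end, sEV-NORM replicate 1 was highest for 5 genes and sEV-HYP replicate 2 for 3. The coefficient of variation over the 8 libraries had a median of 25.3% for these genes and of 22% for all tested genes.

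Krt7 and Krt8 showed their largest differences between sEV-HYP and sEV-CTRL. Krt7 was measured at 6.96, 9.58 and 15.5 CPM in sEV-CTRL, at 13.2, 13.2 and 13.3 CPM in sEV-NORM and at 14.2 and 19.2 CPM in sEV-HYP. The sEV-NORM glands were nearly identical, the sEV-HYP glands were both above them, and one control reached into the sEV-HYP range. Group means were 10.7 ± 4.40, 13.2 ± 0.0668 and 16.7 ± 3.54 CPM (SD). The log2 fold change of Krt7 in sEV-HYP against sEV-CTRL was 0.64 (SE 0.31, 95% interval -0.06 to 1.34), with an unadjusted P of 0.0692 and an adjusted P of 1 by edgeR's quasi-likelihood test with Benjamini-Hochberg adjustment over all tested genes.

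Krt8, the type II luminal keratin, was measured at 48.2, 62.5 and 94.8 CPM in sEV-CTRL, at 72.2, 104 and 74.8 CPM in sEV-NORM and at 95.1 and 109 CPM in sEV-HYP. Both sEV-HYP glands were above all 3 controls, although the lower of them exceeded the highest control by very little, and sEV-NORM lay across the gap. The log2 fold change against sEV-CTRL was 0.58 (SE 0.28, 95% interval -0.05 to 1.21), with an unadjusted P of 0.0676 (adjusted P = 1, edgeR). The estimates of both keratins depended on single libraries. Without sEV-CTRL replicate 3, the log2 fold change against sEV-CTRL was 1.01 for Krt7 (unadjusted P = 0.00359) and 0.88 for Krt8 (unadjusted P = 0.00556), with adjusted P = 1 by edgeR for both, and in sEV-NORM against sEV-CTRL it was 0.68 and 0.60. Without sEV-CTRL replicate 1, the lowest library for most genes, the log2 fold change in sEV-HYP against sEV-CTRL was 0.40 for Krt7 and 0.37 for Krt8. Without sEV-HYP replicate 2 it was 0.39 for Krt7 and 0.46 for Krt8.

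Krt18, the type I partner of Krt8, stood at 88.1, 131 and 155 CPM in sEV-CTRL, 172, 143 and 136 CPM in sEV-NORM and 118 and 155 CPM in sEV-HYP. Its groups overlapped throughout, and its log2 fold change in sEV-HYP was 0.13 against sEV-CTRL (SE 0.24) and -0.14 against sEV-NORM (SE 0.25). Krt19 stood at 121, 153 and 184 CPM in sEV-CTRL, 150, 131 and 175 CPM in sEV-NORM and 173 and 214 CPM in sEV-HYP. The sEV-HYP libraries were among the upper 4, and the log2 fold change was 0.34 against sEV-CTRL (SE 0.21, unadjusted P = 0.144) and 0.35 against sEV-NORM (SE 0.21, unadjusted P = 0.137), with adjusted P = 1 by edgeR for both. Without sEV-HYP replicate 2 these were 0.17 and 0.18, while the first was 0.50 without sEV-CTRL replicate 3 and the second 0.50 without sEV-HYP replicate 1.

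The ratio of Krt8 to Krt18 counts varied from gland to gland. It was 0.548, 0.477 and 0.613 in sEV-CTRL, 0.420, 0.728 and 0.550 in sEV-NORM and 0.804 and 0.708 in sEV-HYP. The sEV-HYP ratios were above those of all controls but 1 of them was below sEV-NORM replicate 2. This ratio was looked at after the levels were known and was not tested.

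The adhesion genes Epcam and Cdh1 showed smaller differences than Krt7 and Krt8 in sEV-HYP against sEV-CTRL. Epcam was measured at 63.6, 106 and 86.7 CPM in sEV-CTRL, 128, 77 and 102 CPM in sEV-NORM and 106 and 96.6 CPM in sEV-HYP. The highest and the lowest values were in sEV-NORM and sEV-CTRL, with the sEV-HYP pair between them, and the log2 fold change in sEV-HYP was 0.25 (SE 0.26) against sEV-CTRL and -0.02 (SE 0.26) against sEV-NORM.

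Cdh1 was measured at 27.5, 45.5 and 47.5 CPM in sEV-CTRL, 55.7, 36.4 and 46.9 CPM in sEV-NORM and 58.5 and 50 CPM in sEV-HYP. Both sEV-HYP glands were above all controls, with a log2 fold change of 0.43 (SE 0.26, 95% interval -0.16 to 1.03), an unadjusted P of 0.132 and an adjusted P of 1 by edgeR. Without sEV-CTRL replicate 1 it was 0.22 (SE 0.22). Against sEV-NORM the log2 fold change of Cdh1 was 0.23 (SE 0.26, 95% interval -0.37 to 0.82).

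The claudins were scarce and variable. Cldn3 was measured at 2.34, 3.69 and 5.47 CPM in sEV-CTRL, 7.32, 2.66 and 4.21 CPM in sEV-NORM and 5.08 and 3.48 CPM in sEV-HYP, and Cldn4 at 7.52, 7.39 and 8.48 CPM in sEV-CTRL, 12.6, 8.38 and 7.47 CPM in sEV-NORM and 5.50 and 9.31 CPM in sEV-HYP. Their groups overlapped in every comparison. The 95% interval of Cldn3 in sEV-HYP against sEV-CTRL, ran from -0.93 to 1.25 on the log2 scale and that of Cldn4 from -0.77 to 0.62.

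The progenitor gene Kit had its lowest mean level in sEV-HYP. It was measured at 59.9, 104 and 96.1 CPM in sEV-CTRL, 136, 68.9 and 104 CPM in sEV-NORM and 59.1 and 70.3 CPM in sEV-HYP. The first sEV-HYP gland was the lowest of all 8, with sEV-CTRL replicate 1 beside it, and the second was just above sEV-NORM replicate 2, so that sEV-HYP overlapped both other groups. The log2 fold change in sEV-HYP against sEV-NORM was -0.67 (SE 0.31, 95% interval -1.38 to 0.04), with an unadjusted P of 0.0608 and an adjusted P of 1 by edgeR. DESeq2, the tool the study used for its 2-group tests, put the same difference past the threshold, with an unadjusted P of 0.0281 and an adjusted P of 0.643 when fitted on these 2 groups. By edgeR the difference also passed the unadjusted threshold without sEV-NORM replicate 2 (-0.89, unadjusted P = 0.0123, adjusted P = 1) and without sEV-CTRL replicate 1 (-0.65, unadjusted P = 0.0426, adjusted P = 0.999), and it was -0.42 without sEV-NORM replicate 1. Against sEV-CTRL the log2 fold change of Kit was -0.42 (SE 0.31, unadjusted P = 0.208, adjusted P = 1, edgeR).

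Because Kit is also a mast cell gene, its level was set beside 8 mast cell genes. They summed to 238, 237 and 239 CPM in sEV-CTRL, 305, 365 and 359 CPM in sEV-NORM and 221 and 219 CPM in sEV-HYP, and none of them was at 0 in any library. Of the 8, 6 were higher in sEV-NORM than in sEV-CTRL and 4 were lower in sEV-HYP than in sEV-NORM at an unadjusted P under 0.05, and none at an adjusted P under 0.05 (edgeR). The shares over all tested genes, in either direction, were 1.62% and 3.95% at the unadjusted threshold. Mcpt4, a mast cell protease, had a log2 fold change of -0.75 (SE 0.18) in sEV-HYP against sEV-NORM, and Tpsb2, a tryptase, of -0.51 (SE 0.19). In sEV-NORM against sEV-CTRL, Hdc, which makes histamine, had 0.59 (SE 0.25) and Tpsb2 0.41 (SE 0.17).

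Kit and the mast cell genes did not order the glands in the same way. sEV-NORM replicate 2 had the highest mast cell sum and one of the lowest Kit levels, and over the 8 libraries the correlation of their log2 levels was r = 0.305 (exact permutation P = 0.444) with Spearman's rho = 0.333 (exact permutation P = 0.428), and r = 0.114 without the 2 libraries farthest from the median. With the group means subtracted, r was -0.618. The 7 melanocyte genes, 3 of which were at 0 in sEV-CTRL replicate 1 and 1 in replicate 3, summed to 28.3 to 53.6 CPM, and 0 of the 5 tested were called in any comparison by edgeR at an unadjusted P under 0.05.

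Kit was compared with Epcam within each library, a ratio that does not depend on the depth of the library. It was 0.942, 0.986 and 1.11 in sEV-CTRL, 1.06, 0.895 and 1.02 in sEV-NORM and 0.559 and 0.727 in sEV-HYP. The 6 libraries of sEV-CTRL and sEV-NORM lay close together and both sEV-HYP libraries were below all of them. The ratio was chosen after its values were seen, so no test is given. The ratio of Kit to Krt8 was 0.621 and 0.642 in sEV-HYP, but sEV-NORM replicate 2, at 0.663, was close to these while the other 5 libraries ranged from 1.01 to 1.89.

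Aldh1a3 was measured at 14.4, 30.3 and 27.6 CPM in sEV-CTRL, 22.3, 10.9 and 20.7 CPM in sEV-NORM and 22.5 and 15.5 CPM in sEV-HYP. Every treatment held a low and a higher gland, and the groups overlapped. The log2 fold change of Aldh1a3 was -0.34 (SE 0.38) in sEV-HYP and -0.42 (SE 0.34, unadjusted P = 0.246, adjusted P = 1, edgeR) in sEV-NORM, both against sEV-CTRL, and 0.08 (SE 0.38) between the vesicle treatments. Without sEV-CTRL replicate 1, its lowest control, the difference between sEV-NORM and sEV-CTRL was -0.71 (unadjusted P = 0.0496, adjusted P = 0.982, edgeR).

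**Figure D2:**
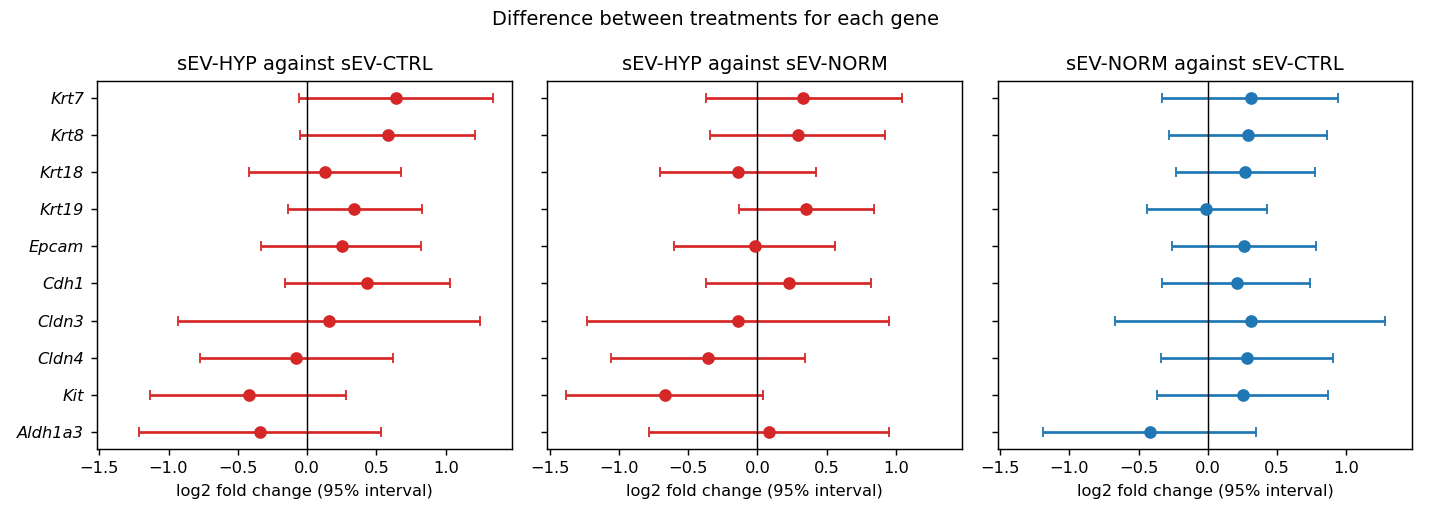
Log2 fold change (horizontal axis) of each gene (vertical axis) in sEV-HYP against sEV-CTRL, sEV-HYP against sEV-NORM and sEV-NORM against sEV-CTRL. Points are edgeR estimates and bars are 95% intervals; every interval includes 0, with Krt7 and Krt8 (left) and Kit (middle) nearest to leaving it out.

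By edgeR none of the 10 genes passed the threshold in any comparison, and by DESeq2 only Kit did, in 1 of them. In sEV-HYP against sEV-CTRL, which asks what hypoxic tumor vesicles add to an injected gland, 0 of the 10 genes passed an unadjusted P under 0.05 by edgeR, against 2.45% of all tested genes, and 0 passed an adjusted P under 0.05, against 0%. DESeq2 called none of them in either fit. The median log2 fold change of the 10 genes was 0.20, against -0.02 over all genes, with 7 higher and 3 lower. Without sEV-CTRL replicate 1 that median was 0, with 5 higher and 5 lower, and without sEV-CTRL replicate 3 it was 0.41. Groups did not overlap for 2 genes, Krt8 and Cdh1, both higher in sEV-HYP, against 12.8% of all genes.

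The comparison of sEV-HYP against sEV-NORM sets vesicles of hypoxic cells against those of normoxic cells. The labels do not separate oxygen supply from vesicle preparation. Here 0 of the 10 genes passed an unadjusted P under 0.05 by edgeR, against 3.95% of all genes. At an adjusted P under 0.05, 0 passed, against 0%. DESeq2 called 1, Kit, at an unadjusted P under 0.05. The median was 0.03, against -0.02 over all genes, with 5 genes higher and 5 lower, and groups did not overlap for 1 gene, Krt7, against 22.8% of all genes. Krt7 (0.33), Krt8 (0.29) and Krt19 (0.35) had the highest estimates and Kit (-0.67) and Cldn4 (-0.36) the lowest. The median was 0.24 without sEV-NORM replicate 1 and -0.17 without sEV-NORM replicate 2.

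In sEV-NORM against sEV-CTRL, the comparison of tumor vesicles without hypoxia, 0 of the 10 genes passed an unadjusted P under 0.05 by edgeR (the smallest being 0.246, for Aldh1a3), against 1.62% of all genes, and 0 passed an adjusted P under 0.05, against 0%. DESeq2 called none. The median was 0.27, against 0 over all genes, with 8 higher and 2 lower, and no gene had groups without overlap, against 4.86%. The 8 positive estimates ran from 0.21 (Cdh1) to 0.31 (Krt7 and Cldn3). This median rested on single glands, being 0.04 without sEV-CTRL replicate 1 and 0.04 without sEV-NORM replicate 1. The first and the last of the 3 comparisons share the sEV-CTRL libraries, among them the low replicate 1, the first 2 share the sEV-HYP libraries and the last 2 the sEV-NORM libraries, so that they are not independent.

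Of the 45 pairs of these genes, 42 had a positive correlation of log2 CPM over the 8 libraries, with a median r of 0.532. Without the 2 libraries farthest from the median of the first gene of a pair, r was below 0 for 22 of the 45 pairs. The median r was then 0.0391. These 2 libraries were chosen pair by pair, and leaving out the extremes of a gene can itself lower r. With group means subtracted the median r was 0.590. The pair with the highest r was Krt7 and Krt8 (r = 0.915, exact permutation P = 0.00126, Benjamini-Hochberg P over 45 pairs = 0.0569, Spearman's rho = 0.738, exact permutation P = 0.0458). It was 0.744 without the 2 libraries farthest from the median and 0.852 with the group means subtracted. Epcam and Cdh1 followed (r = 0.902, exact permutation P = 0.00317, Benjamini-Hochberg P = 0.0714, rho = 0.643, exact permutation P = 0.0962), with 0.526 without the 2 farthest libraries and 0.922 with group means subtracted. No pair passed the adjustment, and 7 had an unadjusted exact permutation P under 0.05.

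Krt8 and Krt18, the classical filament partners, had r = 0.625 (exact permutation P = 0.0941, rho = 0.357, exact permutation P = 0.389). The r was -0.213 without the 2 libraries farthest from the median of Krt8. The keratins correlated with each other with a median r of 0.699 over 6 pairs and the other genes with each other with 0.599 over 15 pairs, while the 24 pairs of a keratin and another gene had a median of 0.418. Without the 2 farthest libraries these medians were 0.287, 0.174 and -0.238. The lowest value was that of Krt8 and Aldh1a3 (r = -0.165). These correlations share library depth, scaling and the amount of epithelium in each gland.

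**Figure D3:**
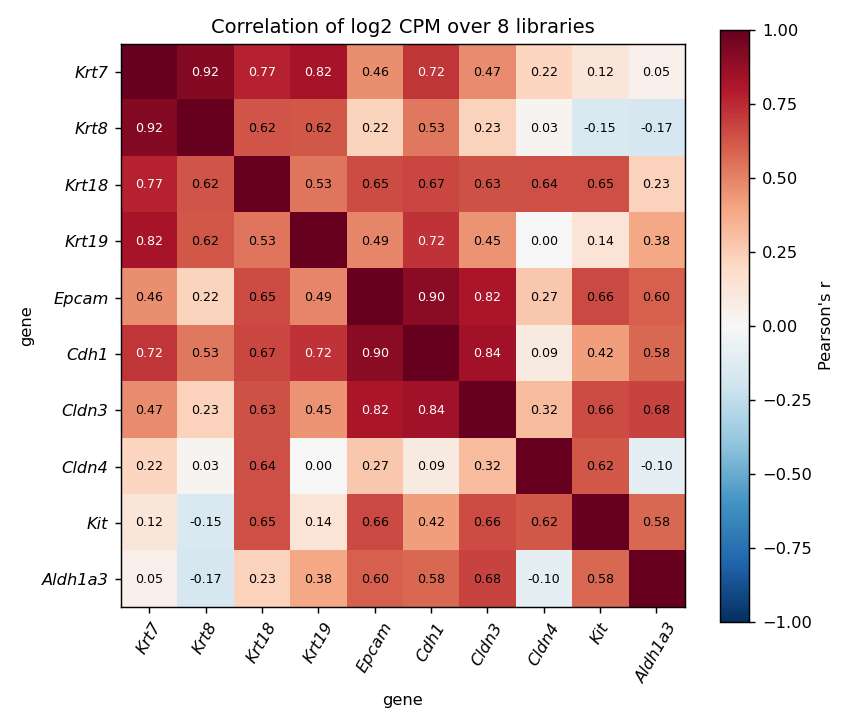
Pearson's r of log2 CPM between each pair of the 10 genes over the 8 libraries (both axes, genes; color scale, r from -1 to 1, with r printed in each cell). The keratins form a block at the upper left and Epcam, Cdh1 and Cldn3 another in the middle, while Krt8 against Kit and Aldh1a3 is slightly negative.

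Other epithelial genes were read from lists. Of 140 relations of one of the 10 genes with the mean log2 CPM of a list, 4 passed a Benjamini-Hochberg P of 0.05 for r and 1 for rho. Cldn3 followed the mean of 10 other luminal progenitor genes, among them Elf5, the alveolar lineage factor, and Cd14, also in the myeloid list. The r was 0.959 (exact permutation P = 2.48e-05, the smallest such a test can give, Benjamini-Hochberg P = 0.00347). The rho was 1.0 (exact permutation P = 4.96e-05, the smallest such a test can give, Benjamini-Hochberg P = 0.00694). The libraries had the same order in Cldn3 and in that mean, from sEV-CTRL replicate 1 (Cldn3 at 2.34 CPM) to sEV-NORM replicate 1 (7.32 CPM). The r was 0.964 without the 2 farthest libraries and 0.974 with group means subtracted. Single genes of the list did not all follow, and Itgb3 stood at 14 and 9.89 CPM in these 2 libraries. With the myeloid list, Cldn3 had rho = 0.833 (exact permutation P = 0.0154, Benjamini-Hochberg P = 0.359) and r = 0.605.

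Epcam followed 30 other junction and polarity genes (r = 0.947, exact permutation P = 0.000298, Benjamini-Hochberg P = 0.0197, rho = 0.881, exact permutation P = 0.00724) and 12 epithelial splicing and transcription factors (r = 0.946, exact permutation P = 0.000422, Benjamini-Hochberg P = 0.0197, rho = 0.929, exact permutation P = 0.00223). Without the 2 farthest libraries these were 0.818 and 0.820, and with group means subtracted 0.942 and 0.950. Kit followed the 8 tested alveolar and milk genes (r = 0.912, exact permutation P = 0.000595, Benjamini-Hochberg P = 0.0208, rho = 0.952, exact permutation P = 0.00114, with a Benjamini-Hochberg P of 0.0799 for rho). Its r was 0.875 without the 2 farthest libraries and 0.991 with group means subtracted. Single genes of this list did not all follow. Csn3 (346 CPM) and Muc1 (8.17 CPM) were highest in sEV-NORM replicate 1, as was Kit. Glycam1 was highest in sEV-NORM replicate 2 (1190 CPM) and Aqp5 in sEV-HYP replicate 2 (21.4 CPM), where Kit was at 68.9 and 70.3 CPM. Csn1s1 (0 to 3.9 CPM), Csn1s2a (0.0508 to 2.57), Csn2 (0.0887 to 4.99) and Lalba (0.229 to 1.09) were near the floor.

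**Figure D4:**
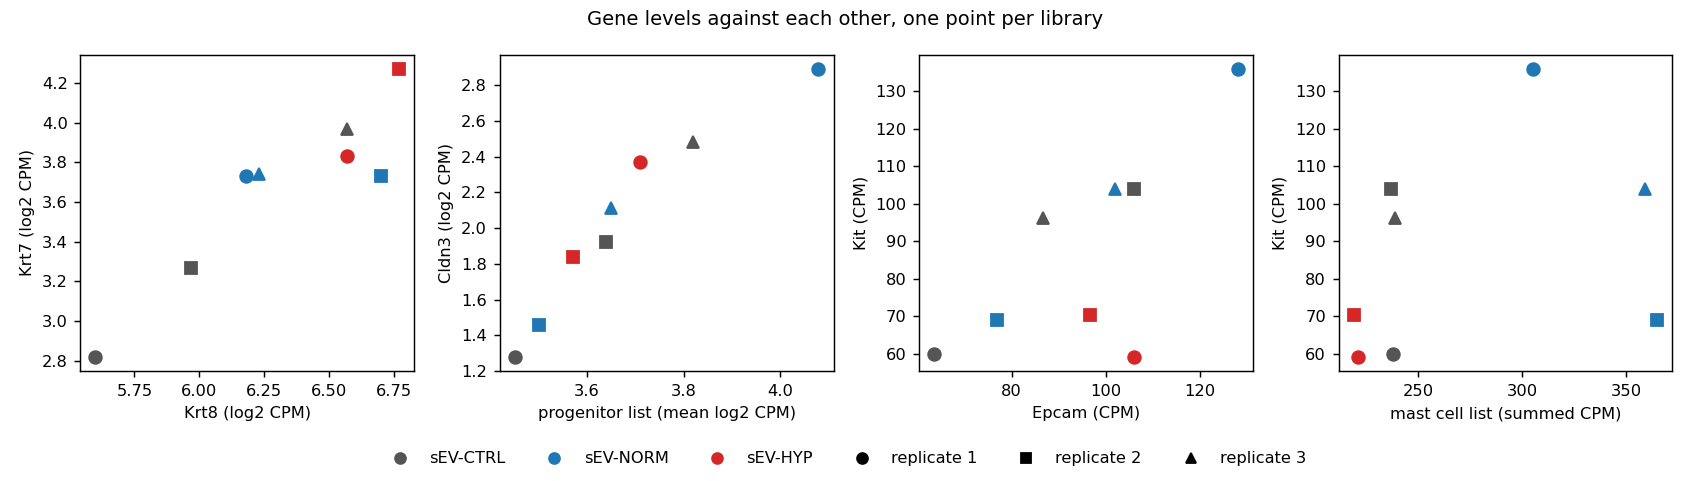
Levels of 2 genes or lists against each other, one point per library, colored by treatment and shaped by replicate number: Krt7 against Krt8 (log2 CPM), Cldn3 (log2 CPM) against the mean log2 CPM of 10 other luminal progenitor genes, Kit against Epcam (CPM) and Kit (CPM) against the summed CPM of 8 mast cell genes. In the third panel the 2 sEV-HYP points lie below libraries of similar Epcam level, and in the fourth the sEV-NORM points, with Kit at 136, 68.9 and 104 CPM, have the 3 highest mast cell sums (305, 365 and 359 CPM).

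Other genes of the same compartments seldom passed the test, and none at an adjusted P under 0.05. At an unadjusted P under 0.05 by edgeR, 2.45% of all tested genes were called in sEV-HYP against sEV-CTRL. The share was 3.95% in sEV-HYP against sEV-NORM and 1.62% in sEV-NORM against sEV-CTRL. Of the 30 other junction and polarity genes, 0 were called in sEV-HYP against sEV-CTRL (median log2 fold change 0.05) and 0 in sEV-NORM against sEV-CTRL (0.15), while 1 was lower in sEV-HYP against sEV-NORM (-0.03), by edgeR at an unadjusted P under 0.05. That gene was Marveld2, which encodes tricellulin of the tricellular tight junction, at a log2 fold change of -0.73 (SE 0.26). Of the 10 other luminal progenitor genes 0 were called in any comparison, with a median of -0.10 in sEV-HYP against sEV-CTRL, -0.39 in sEV-HYP against sEV-NORM and 0.09 in sEV-NORM against sEV-CTRL.

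Among the 12 splicing and transcription factors, 2 were higher in sEV-NORM than in sEV-CTRL, Ovol1 (log2 fold change 1.17, SE 0.50, at 0.829 against 0.363 CPM) and Foxa1, the pioneer factor of hormone-sensing luminal cells (0.68, SE 0.27, at 73.3 against 45.8 CPM). Foxa1 was also the only one of 10 hormone-sensing luminal genes called in that comparison, where 1.62% of all tested genes were called. In sEV-HYP against sEV-NORM, Tnfsf11, the paracrine signal RANKL, had a log2 fold change of -0.94 (SE 0.27) and Wnt4, another progesterone-driven signal, of 0.90 (SE 0.39), with no other of these 10 called. Of 8 tested alveolar and milk genes, 2 were lower in sEV-HYP than in sEV-NORM at an unadjusted P under 0.05 by edgeR. The share over all tested genes was 3.95%. The 2 genes were Csn1s2a (-2.95, SE 1.17, at 0.145 against 1.16 CPM) and Glycam1 (-0.65, SE 0.28). Glycam1 was highest in sEV-NORM replicate 2 (1190 CPM) and lowest in sEV-HYP replicate 2 (543 CPM). The B cell and lymph node genes were also highest (3530 CPM) and lowest (1130 CPM) there. In sEV-NORM replicate 3, Glycam1 was at 1020 CPM with a B cell and lymph node sum of 1500 CPM. Whether Glycam1 followed lymph node content was not tested.

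Of 12 basal epithelial genes, 2 passed an unadjusted P under 0.05 by edgeR in sEV-HYP against sEV-CTRL, both higher. The share over all tested genes was 2.45%. The 2 were Oxtr, the oxytocin receptor of myoepithelial cells (log2 fold change 0.76, SE 0.28), and Cnn1, a calponin of contractile cells (0.58, SE 0.25). Cnn1 was also higher than in sEV-NORM (0.62, SE 0.25). Over the 12 genes the median log2 fold change against sEV-CTRL was 0.13, with 9 higher and 3 lower. Krt5 was at 0.01, Krt14 at 0.03 and Trp63 at -0.13 in that comparison. The basal list summed to 553, 859 and 699 CPM in sEV-CTRL and to 818 and 846 CPM in sEV-HYP, so that sEV-CTRL replicate 1, low in the luminal genes, was low in these too. Of the 6 tested skin genes 3 were higher in sEV-NORM than in sEV-CTRL, from Krt77 (6.11, SE 2.30) to Dsg1a (3.24, SE 1.09), with the high library being sEV-NORM replicate 3. In that comparison 1.62% of all tested genes were called. No gene of the white adipocyte, skeletal muscle, B cell and lymph node, myeloid or mesothelial lists was called in any comparison, and of 6 mesothelial genes only 2 were abundant enough to test. Outside all lists, the 5 genes whose log2 CPM was most like the mean z-scored level of the 10 genes over the 8 libraries were 4921536K21Rik (r = 0.979), Ltb4r1 (0.977), Rpusd1 (0.952), Npas2 (0.947) and Asphd2 (0.945), given as a description. Their mean levels were low, at 0.819, 0.548, 2.01, 6.61 and 0.5 CPM in this order. They were picked for the highest r among all tested genes outside the lists, so these r values carry no test.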

How the data were processed

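Poly(A) RNA of whole abdominal mammary glands was sequenced (Lexogen Sense mRNA-Seq V2), 1 column of the deposited table per library and no column left unused (0). The authors aligned reads with STAR to mm10 and made the deposited estimated counts with RSEM 1.2.12 (version per the submitters' processing notes) on Ensembl GRCm38.89 genes. The values are whole numbers, and how they were rounded is not given in the sources used here. Symbols and positions came from GENCODE M21 (51596 of 51789 IDs matched). Treatments were taken from the labels, which give no batch.

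Genes were filtered with filterByExpr (minimum count 10) and fitted in 1 model of 3 treatments by edgeR 4.0.16 (limma 3.58.1, R 4.3.3) with TMM and quasi-likelihood F tests. A gene was called at an unadjusted P under 0.05, the threshold of the study, and Benjamini-Hochberg values over all 17858 tested genes stand beside it. DESeq2 1.42.0 was an alternative, as were other scaling, filters, sample sets, a block on replicate number and covariates. Log2 CPM used a prior count of 2. Correlations used exact two-sided permutation tests over 8 libraries (scipy 1.17.1). Libraries of a treatment all differed by more than sampling noise. The code was tested on simulated data.

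The 10 genes and the gene lists were chosen with earlier results of these data known. Named besides the 10 genes are, of each list (15 with the 10 genes), those with the highest and lowest log2 fold change at an unadjusted P under 0.05, and the 5 genes outside all lists most correlated with the 10. Outside this rule, Elf5, Cd14, Itgb3, Krt5, Krt14, Trp63, Csn1s1, Csn2, Csn3, Lalba, Muc1 and Aqp5 were named to describe their lists. Ratios between genes and the mast cell covariate were added after the data were seen.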

Additional observations from a re-analysis of the deposited data

How the results depend on the processing

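No gene was called in the report's fit, so that no call could be lost. Of the counts of called genes, 36 stayed as they were and 18 moved, and of the fold changes of the 10 genes 485 kept direction and side of the threshold, 26 newly passed it and 29 reversed. DESeq2's size factors, edgeR on only the groups compared and a minimum of 10 counts in every library moved no count. In sEV-HYP against sEV-CTRL, 2 genes (Krt7, Krt8) were called with no filter, 2 (Kit -0.58, Aldh1a3 -0.64) with the junction list as a covariate, 2 (Krt7 0.76, Krt19 0.44) with the adipocyte list and 1 (Krt8 0.72) with the mast cell list, a covariate chosen after seeing the data. In sEV-HYP against sEV-NORM, 1 gene, Kit, was called by DESeq2 on all 8 libraries and on only the 2 groups. By edgeR Kit was called with no filter and with the junction (-0.53) and adipocyte (-0.68) covariates. It was also called with the mast cell covariate (-2.01, SE 0.72), which cannot be told apart from the sEV-NORM treatment. The mean log2 CPM of the mast cell list was 4.2 to 4.48 in sEV-NORM and 3.74 to 3.92 in the other libraries. In sEV-NORM against sEV-CTRL, 1 gene (Aldh1a3 -0.87) was called with the junction covariate. With each library left out in turn, 0 to 3, 0 to 1 and 0 to 2 genes were called in the 3 comparisons in this order, the 3 (Krt7, Krt8, Krt19) and the 2 (Krt7, Krt8) without sEV-CTRL replicate 3. Where 1 sEV-HYP library was left, its spread was taken from the other groups.

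The labels do not say whether replicate numbers pair the samples, and correlations of deviations from the group means did not settle it. Same-numbered libraries correlated at -0.285, -0.416 and -0.0131 between sEV-CTRL and sEV-NORM. They correlated at 0.369 and 0.337 between sEV-CTRL and sEV-HYP, and at -0.134 and -0.307 between sEV-NORM and sEV-HYP. Libraries of different number ranged from -0.369 to 0.467. The deviations of the 2 sEV-HYP libraries mirror each other, so that pairing with them could not be decided. With the replicate block, 3 genes were called in sEV-HYP against sEV-CTRL (Krt7 0.85, Krt8 0.72, Krt19 0.48), 1 in sEV-HYP against sEV-NORM (Krt19 0.47) and none in sEV-NORM against sEV-CTRL, where Krt19 reversed to 0.01.

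Log2 fold changes that reversed with the junction covariate were Cldn3 at -0.16 in sEV-HYP against sEV-CTRL, Epcam at 0.07 and Cldn3 at 0.02 in sEV-HYP against sEV-NORM, and Cdh1 at -0.06, Cldn3 at -0.18 and Kit at -0.05 in sEV-NORM against sEV-CTRL. With the adipocyte covariate Krt19 reversed to 0.12 in sEV-NORM against sEV-CTRL. With the mast cell covariate Cdh1 (-0.22) and Aldh1a3 (-0.63) reversed in sEV-HYP against sEV-NORM. In sEV-NORM against sEV-CTRL, Krt8 (-0.68), Krt19 (0.13) and Aldh1a3 (0.23) reversed with it. The mast cell covariate did not overlap between sEV-NORM and the other libraries, so these estimates cannot be separated from the treatment. Over libraries left out, sEV-HYP against sEV-CTRL ran from -0.09 to 0.32 for Krt18, -0.14 to 0.51 for Cldn3 and -0.52 to 0.26 for Cldn4. The range in sEV-HYP against sEV-NORM was -0.35 to 0.04 for Krt18, -0.19 to 0.17 for Epcam, -0.44 to 0.32 for Cldn3 and -0.21 to 0.32 for Aldh1a3. In sEV-NORM against sEV-CTRL it was -0.17 to 0.15 for Krt19, -0.03 to 0.35 for Cdh1 and -0.16 to 0.65 for Cldn3. The cause of these shifts was not tested. With 2 to 3 glands a group and Cldn3 at 46 to 182 counts per library, precision was limited to the 95% intervals in the report.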
